A study of Mus musculus with 2 samples.

Results

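The mitosis genes are 35 genes of mitotic entry, chromosome condensation, spindle function, chromosome segregation and cytokinesis, chosen by gene symbol from the 31053 genes measured. All 35 were found once in both libraries. They were sorted into 8 roles: kinases and cyclins, chromosome structure, centromere and kinetochore, spindle checkpoint, chromosomal passenger, spindle motors and assembly, midzone and cytokinesis, and mitotic exit.

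Cells that enter mitosis condense their chromosomes, attach them to a spindle of microtubules at the kinetochores, wait at the spindle checkpoint until every chromosome is attached, and then cut cyclins and securin through the anaphase-promoting complex. Most of the genes for this work are transcribed late in the cell cycle, from G2 into mitosis, and are switched off in resting cells, so their RNA marks dividing cells. In stratified epithelium such as that of the tongue, division takes place mainly in the basal layer, and cells that move up stop dividing and differentiate.

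The study measured single-cell RNA in tongue tumour tissue of wild type C57BL/6 mice in which 4NQO, a chemical carcinogen that causes oral squamous cell carcinoma, had been used to induce a model of head and neck squamous cell carcinoma. The JQ1 library came from 4NQO-induced mice given JQ1, an inhibitor of BET bromodomain proteins, for 10 days, and the control library from 4NQO-induced mice given the control treatment for 10 days. Each group is 1 library, and how many mice contributed to it is not stated in the labels. There was therefore no replicate check and no test: each interval covers counting error only, at 95%, and treatment cannot be told apart from library or animal.

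After filtering, 14044 cells remained in the JQ1 library and 8150 in the control library, with a median of 3879 and 11303 UMIs (unique molecular identifiers, 1 per captured RNA molecule) per cell. The mitosis genes held 45035 UMIs in JQ1 cells and 123311 UMIs in control cells. Classes were assigned from marker genes, and 1034 JQ1 cells (7.36%) and 327 control cells (4.01%) reached no class, while 500 and 151 were mixed. RNA of other cells was present in each library: in fibroblasts, keratinocyte markers had a median of 3.30 UMIs per 10000 in JQ1 and 8.52 in control, haemoglobin and other erythroid markers 3.51 in JQ1 and 0 in control, and gland markers 3.98 in JQ1 and 0 in control. The part of such RNA in the results was not tested. A total of 40 barcodes occurred in both libraries, and leaving them out kept each ratio between the libraries given below for a whole class within its counting interval.

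Gates went against their labels in 2 places. Of the 44 JQ1 keratinocytes in the Stmn2 subtype, 7 had a Stmn2 UMI and 42 a Ppbp UMI, against 743 and 492 of 809 control cells. Of the 33 control cells gated as immature neutrophils, 32 had a Chil3 UMI, none had an Elane, Mpo or Ctsg UMI, and 69.7% lay within 1.5 times the gate, against 12.7% of the 166 JQ1 cells. These 2 pairs of populations are unlike, so their levels are given as values and read as no difference between the libraries.

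Promoters of 6 members are shown because they span the range of the ratios found in keratinocytes, from Top2a, the highest, to Ube2c, the lowest. Promoter sequence was matched by symbol in RefSeq (build GRCm38.p6) for 30 of the 35 members. Each stretch runs from 110 bases before to 50 bases after the gene's start, 5′ to 3′ on the gene's strand. Capitals mark TTTGAA or TTCGAA, the core of the cell cycle genes homology region that the DREAM complex binds in late cell cycle genes, and CCAAT, the box bound by NF-Y, each searched on both strands (TTCAAA and ATTGG are the reverse forms). The 3 motifs share no overlap in these stretches.
Top2a (chr11:99024140-99024299, minus strand): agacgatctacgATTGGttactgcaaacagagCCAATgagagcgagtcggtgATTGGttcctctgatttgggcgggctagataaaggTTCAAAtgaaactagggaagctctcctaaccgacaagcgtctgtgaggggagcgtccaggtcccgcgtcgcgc
Kif4 (chrX:100625955-100626114, plus strand): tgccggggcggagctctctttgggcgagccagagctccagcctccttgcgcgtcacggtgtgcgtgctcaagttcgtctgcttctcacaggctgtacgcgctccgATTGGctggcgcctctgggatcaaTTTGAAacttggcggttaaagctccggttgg
Nuf2 (chr1:169531415-169531574, minus strand): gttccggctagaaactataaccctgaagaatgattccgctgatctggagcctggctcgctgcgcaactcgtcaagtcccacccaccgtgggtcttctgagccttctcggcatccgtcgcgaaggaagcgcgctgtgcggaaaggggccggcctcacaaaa
Cdk1 (chr10:69352863-69353022, minus strand): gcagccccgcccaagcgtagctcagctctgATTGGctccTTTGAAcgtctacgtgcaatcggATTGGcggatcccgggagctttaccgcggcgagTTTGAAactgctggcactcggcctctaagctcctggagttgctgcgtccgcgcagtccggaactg
Cenpa (chr5:30666776-30666935, plus strand): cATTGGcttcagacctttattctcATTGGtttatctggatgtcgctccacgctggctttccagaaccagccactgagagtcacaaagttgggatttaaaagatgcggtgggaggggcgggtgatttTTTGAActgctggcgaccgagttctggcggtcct
Ube2c (chr2:164769819-164769978, plus strand): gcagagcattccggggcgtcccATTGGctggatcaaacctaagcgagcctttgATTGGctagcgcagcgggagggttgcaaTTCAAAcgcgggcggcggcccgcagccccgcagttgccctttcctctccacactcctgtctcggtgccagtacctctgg

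Over the full 300 bases of each promoter in the table, 25 of the 30 members with a sequence (83.3%) held TTTGAA or TTCGAA, against 21.7% of all 27025 genes. CCAAT was found in 23 of the 30 (76.7%), against 41.1% of all genes, and both motifs in 1 promoter in 21 of the 30 (70.0%), against 8.61%. TTTGAA or TTCGAA stood in 10 of the 11 members that were at least 1.5-fold higher in JQ1 and in 15 of the 19 other members with a sequence, and CCAAT in 9 and in 14. Ube2c and Cdk1, with low ratios, held both motifs, and Nuf2, with a high ratio, held neither.

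Keratinocytes had the highest summed level of the mitosis genes in both libraries, except that they ranked 2 in JQ1 under the stricter cell filter, where erythroid cells had 1864 CPM. Levels are in CPM, the counts per 1000000 UMIs of the class, over classes of at least 50 cells. In keratinocytes the sum was 1531 CPM in JQ1 (interval 1513 to 1548, 1367 cells) and 1178 CPM in control (1171 to 1185, 5167 cells). In the JQ1 library immature neutrophils came next with 1187 CPM (1121 to 1256, 166 cells), then erythroid cells with 1003 CPM (948 to 1061, 233 cells) and T cells with 616 CPM (571 to 664, 396 cells). The place of erythroid cells depended on the cell filter: with none they had 404 CPM, below T cells at 624 CPM. Their order with JQ1 immature neutrophils was the opposite in Leiden clusters, at 1380 CPM in erythroid cells and 1183 CPM in immature neutrophils. It was also the opposite for means over cells, at 1001 and 588 CPM. Of the 166 JQ1 immature neutrophils, 7 held at least 50% of the mitosis UMIs. In the control library T cells came next with 1021 CPM (938 to 1110, 227 cells), and no cell was gated as erythroid.

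Endothelial cells had 273 CPM in JQ1 and 356 CPM in control. Fibroblasts had 119 CPM in JQ1 and 117 CPM in control, and mature neutrophils, which have left the cell cycle, had 117 CPM in JQ1 and 144 CPM in control. In the JQ1 order the intervals of macrophages, pericytes, fibroblasts and mature neutrophils overlapped from one to the next. In fibroblasts 39.6% of the mitosis UMIs in JQ1 and 43.2% in control came from Smc2, Smc4, Racgap1, Cenpa and Ect2. The share was 21.7% in JQ1 keratinocytes and 23.3% in control keratinocytes. These 5 members were chosen as widely used, and their use by non-dividing cells was not tested. In JQ1, Racgap1 and Ect2 held 2.01% and 0.724% in fibroblasts and 2.13% and 1.44% in keratinocytes. In control they held 2.56% and 1.53% in fibroblasts and 2.07% and 1.06% in keratinocytes. Kif23, not among the 5, held 11.4% in JQ1 and 10.6% in control mature neutrophils. Fewer dividing cells and less mitosis RNA per dividing cell cannot be told apart in these sums.

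**Figure D1:**
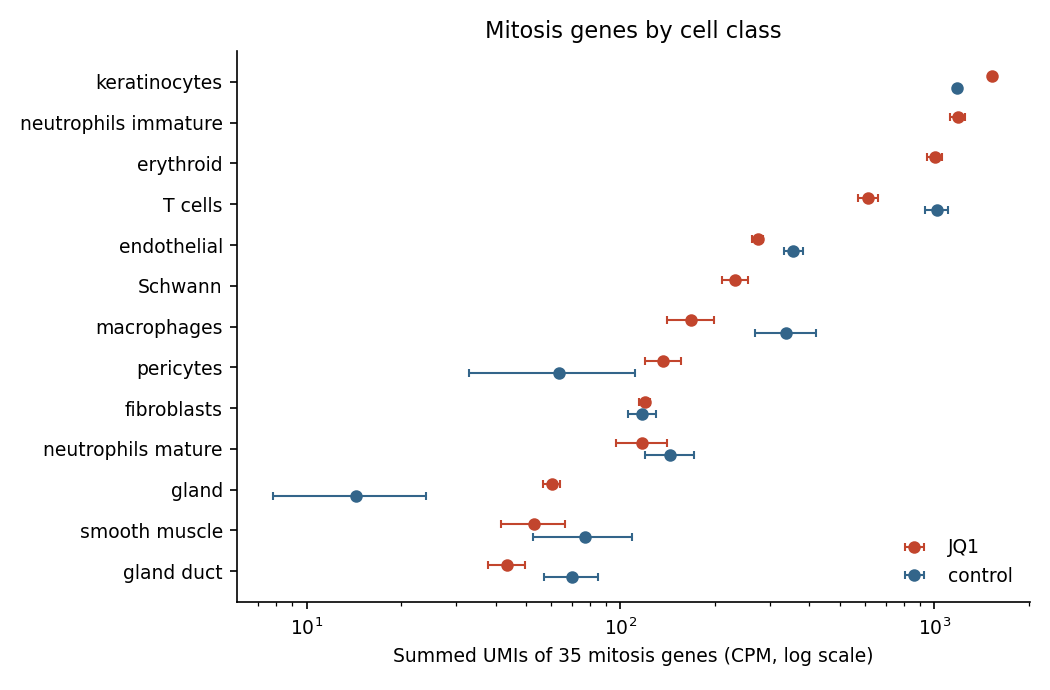
Summed UMIs of the 35 mitosis genes in CPM of the class (log axis), for each class with at least 50 cells, in the JQ1 and control libraries. Points are sums over cells and bars are exact Poisson intervals. Keratinocytes stand highest in both libraries, at 1531 CPM in JQ1 and 1178 CPM in control. Immature neutrophils, erythroid cells and Schwann cells are plotted for JQ1 only.

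To set depth aside, each cell was thinned to 1000 UMIs, and cells with at least 2 mitosis UMIs among them were counted; cells under 1000 UMIs were left out. In keratinocytes 319 of 1292 JQ1 cells (24.7%, interval 22.4 to 27.1) and 946 of 5145 control cells (18.4%, 17.3 to 19.5) were counted, with 75 JQ1 and 22 control cells left out. In mature neutrophils, taken as the background, the share was 1.28% of 467 JQ1 cells and 1.90% of 422 control cells. Median depths before thinning were 11822 UMIs in JQ1 and 17548 in control keratinocytes, and 1687 and 1521 in mature neutrophils. Without thinning, the keratinocyte shares were 61.1% in JQ1 and 67.8% in control, the opposite order.

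In T cells no difference was detectable at this depth, with 31 of 372 JQ1 cells (8.33%, 5.73 to 11.6) and 17 of 201 control cells (8.46%, 5.004 to 13.2) counted. Endothelial cells had 2.08% of 2020 in JQ1 and 3.19% of 470 in control, with intervals that overlapped. Fibroblasts had 0.777% of 4375 JQ1 cells (0.539 to 1.08) and 0.780% of 769 control cells (0.287 to 1.69). These intervals overlapped those of the background share, 0.473 to 2.78 in JQ1 and 0.822 to 3.70 in control. That background rests on 6 JQ1 and 8 control mature neutrophils. In JQ1, 18 of 162 immature neutrophils (11.1%) and 22 of 228 erythroid cells (9.65%) were counted. In JQ1, 91.5% of the thinned mitosis UMIs of erythroid cells lay in the counted cells, against 89.6% in keratinocytes and 85.4% in immature neutrophils. Counted cells hold at least 2 such UMIs by definition, so a high share follows in part from the count.

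**Figure D2:**
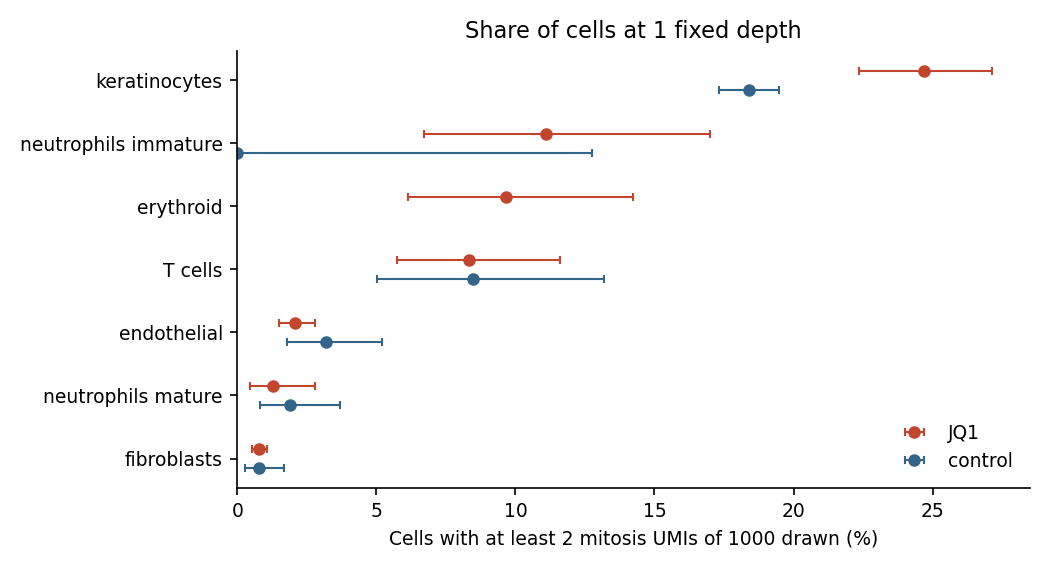
Share of cells (%) with at least 2 mitosis UMIs after thinning each cell to 1000 UMIs, by class, in the JQ1 and control libraries. Bars are Clopper-Pearson intervals. Keratinocytes stand at 24.7% in JQ1 and 18.4% in control, while the bars of the 2 libraries overlap in T cells, endothelial cells, mature neutrophils and fibroblasts.

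Within keratinocytes the summed mitosis level was 1.30 times as high in JQ1 as in control (interval 1.28 to 1.32). The mix of subtypes differed between the libraries: Krt15-high basal cells made up 38.2% of JQ1 keratinocytes and 17.0% of control keratinocytes, the Stmn2 gate 3.22% and 15.7%, and the Krt42 gate 0.878% and 13.7%. With each JQ1 subtype weighted as in the control library, the JQ1 sum came to 1135 CPM, against 1178 CPM in control, a ratio of 0.964. That value gives the 44 JQ1 cells of the Stmn2 gate and the 12 of the Krt42 gate the weight of their far larger control groups. In alternatives chosen after seeing the data, the ratio at the control mix was 1.03 without the Stmn2 gate in both libraries, 1.08 without the Stmn2 and Krt42 gates, and 1.06 with the trimmed markers, in which Ppbp no longer counts for the Stmn2 gate. The median log2 ratio of all genes in keratinocytes was 0.20, and relative to it the ratio of the sum was 1.13.

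Subtype by subtype, the Krt15-high basal and other basal groups had the highest levels in both libraries. Other basal cells are the keratinocytes left over when no subtype gate was reached. They had no gate of their own on basal markers, and their basal identity was not tested. Krt15-high basal cells had 2111 CPM in JQ1 and 1791 CPM in control (ratio 1.18, 1.15 to 1.20). Other basal cells had 1881 CPM in JQ1 and 1766 CPM in control (1.07, 1.04 to 1.09), and relative to the median of all genes their ratio was 0.929. Suprabasal cells, gated by the differentiation keratins Krt13 and Krt4, had 660 CPM in JQ1 and 502 CPM in control (1.32, 1.25 to 1.38). Cells gated by the stress keratins Krt6a, Krt6b and Krt16 had 443 CPM in JQ1 and 576 CPM in control (0.769, 0.708 to 0.834), and 3 of the 83 JQ1 cells held at least 50% of their mitosis UMIs. The Krt42 subtype had 1057 CPM in 12 JQ1 cells and 1347 CPM in 706 control cells, and the Stmn2 gate, with its unlike cells, 411 CPM in JQ1 and 743 CPM in control. Cornifying cells, which have left the cycle, had 95.2 CPM in 9 JQ1 cells and 146 CPM in 17 control cells.

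**Figure D3:**
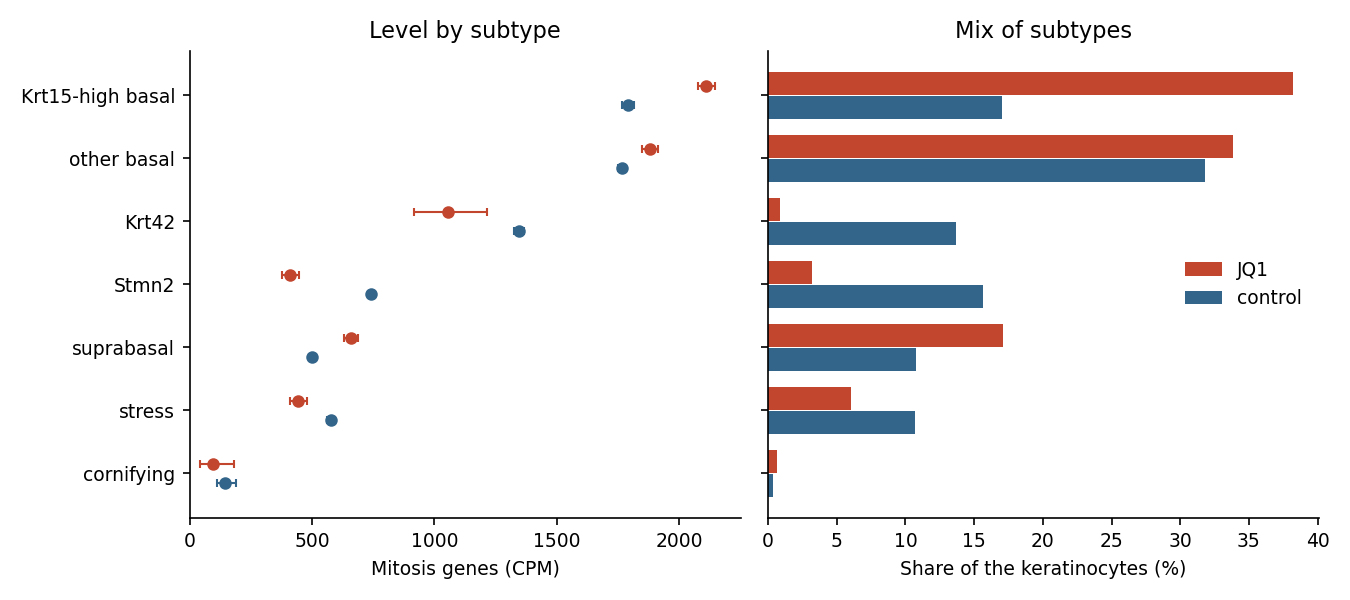
Left, summed mitosis genes in CPM by keratinocyte subtype with exact Poisson intervals; right, share of the keratinocytes (%) in each subtype, for the JQ1 and control libraries. Krt15-high basal cells and other basal cells, the ungated remainder, stand above 1700 CPM in both libraries. The Krt15-high basal share is 38.2% in JQ1 and 17.0% in control.

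Of the 35 members, all passed the minimum of 20 UMIs over both libraries in keratinocytes. At least 1.5-fold higher levels in JQ1 were found for 11 members, against 22.8% of all 14849 genes tested, and at least 1.5-fold lower levels for 0 members, against 8.18% of all genes. The median log2 ratio of JQ1 over control was 0.49 over the members and 0.20 over all genes, and 33 members lay above a ratio of 1. The median gene thus lay above a ratio of 1 as well. Relative to the median of all genes, 6 members were at least 1.5-fold higher, and none was 2-fold higher on the unadjusted scale. The shares of all genes above 1 and at these last cuts are not given here, so these counts are values only. CPM is not per length, so levels are compared between libraries and not between genes.

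Among genes of chromosome structure, Top2a, the topoisomerase that untangles sister chromatids, had 141 CPM in JQ1 and 71.6 CPM in control (ratio 1.97, 1.88 to 2.06). Mki67, which coats mitotic chromosomes and keeps them apart, had 97.0 CPM in JQ1 and 51.7 CPM in control (1.88, 1.78 to 1.98). Both ratios were the largest of the 35. The condensin subunits moved less: Smc4 had 117 CPM in JQ1 and 91.2 CPM in control (1.28), and Smc2 had 81.9 CPM in JQ1 and 64.7 CPM in control (1.27).

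The spindle checkpoint genes were higher in JQ1 as a group, with 38.6 CPM in JQ1 and 25.2 CPM in control (1.53). Bub1, a checkpoint kinase at the kinetochore, had 11.9 CPM in JQ1 and 7.48 CPM in control (1.60, 1.37 to 1.85). Bub1b, which encodes BubR1 of the mitotic checkpoint complex, had 16.01 CPM in JQ1 and 10.2 CPM in control (1.57), and Ttk, the Mps1 kinase, 10.7 CPM in JQ1 and 7.54 CPM in control (1.41).

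Spindle motors and assembly factors together had a ratio of 1.46. Kif11, the kinesin that pushes spindle poles apart, had 24.9 CPM in JQ1 and 14.3 CPM in control (1.74, 1.56 to 1.93). Kif4, a chromosome-bound kinesin, had 14.9 CPM in JQ1 and 8.61 CPM in control (1.73, 1.51 to 1.98). Hmmr had a ratio of 1.58, Kif2c, a microtubule depolymerase, 1.42, and Tpx2, which activates Aurora A, 1.42. Nusap1, a microtubule-bundling protein, stood lowest of this role with 20.6 CPM in JQ1 and 18.2 CPM in control (1.14).

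Midzone and cytokinesis genes together had a ratio of 1.43. Ect2, the exchange factor that activates RhoA at the cleavage furrow, had 22.1 CPM in JQ1 and 12.5 CPM in control (1.76, 1.58 to 1.97). Anln, the furrow scaffold anillin, had 36.3 CPM in JQ1 and 23.1 CPM in control (1.57), and Kif23, of the centralspindlin complex, 32.2 CPM in JQ1 and 20.7 CPM in control (1.56). Its partner Racgap1 had a ratio of 1.34, Kif20a 1.34, Kif20b 1.41 and Prc1, which bundles midzone microtubules, 1.27.

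Centromere and kinetochore genes were split. Nuf2, of the Ndc80 complex that binds microtubules, had 9.57 CPM in JQ1 and 5.11 CPM in control (1.87, 1.57 to 2.22), and Ndc80 itself had a ratio of 1.48. Cenpf had a ratio of 1.44 and Cenpe, a kinetochore kinesin, 1.32. Cenpa, the histone H3 variant of centromeres, had 78.2 CPM in JQ1 and 81.2 CPM in control (0.964, 0.912 to 1.02), an interval that spans 1. The chromosomal passenger genes stood between, with a ratio of 1.38 for Aurkb, the kinase that corrects attachments, and 1.24 for Birc5, or survivin.

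Kinases and cyclins of mitotic entry were the role closest to 1 but for mitotic exit, with a ratio of 1.15. Ccna2, the cyclin of S phase and G2, had 35.7 CPM in JQ1 and 24.7 CPM in control (1.44), and Plk1 had 12.0 CPM in JQ1 and 9.34 CPM in control (1.28). Ccnb2 had a ratio of 1.16, Ccnb1 1.11 and Aurka 1.09, the last with an interval of 0.953 to 1.24. Cdk1, the kinase that drives entry, had 64.8 CPM in JQ1 and 61.8 CPM in control (1.05, 0.985 to 1.11).

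Mitotic exit genes had 193 CPM in JQ1 and 199 CPM in control. Cdc20, the activator of the anaphase-promoting complex, had 73.2 CPM in JQ1 and 62.7 CPM in control (1.17). Ube2c, its ubiquitin-conjugating enzyme, had 120 CPM in JQ1 and 137 CPM in control (0.878, 0.840 to 0.917), the lowest ratio of the 35. As a share of the mitosis UMIs of keratinocytes, chromosome structure genes held 28.5% in JQ1 and 23.7% in control, and mitotic exit genes 12.6% in JQ1 and 16.9% in control.

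**Figure D4:**
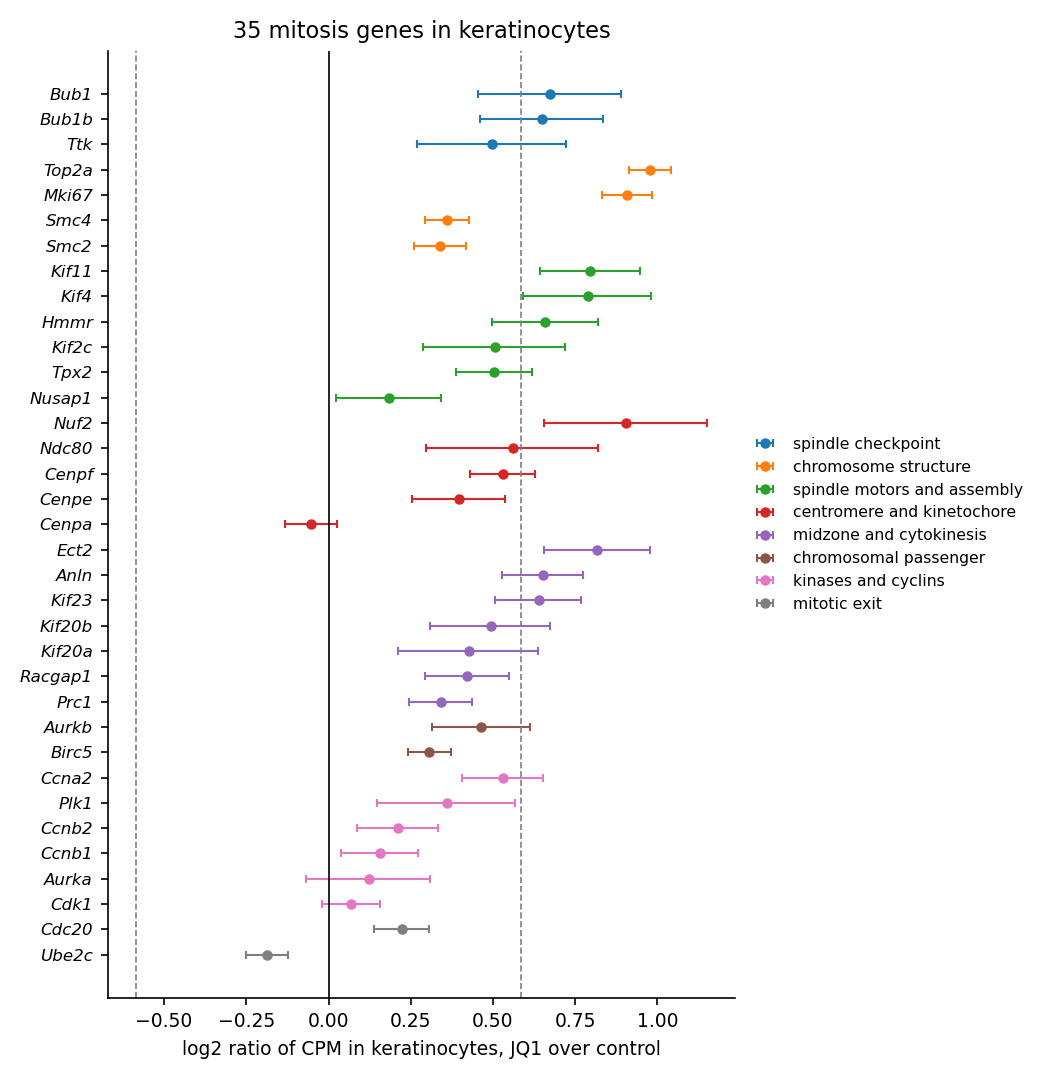
log2 ratio of CPM in keratinocytes, JQ1 over control, for each of the 35 mitosis genes, grouped and coloured by role, with intervals from counting error. Dashed lines mark 1.5-fold. Top2a and Mki67 stand farthest right, and Cenpa and Ube2c are the 2 genes left of 0.

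The pattern over genes was only partly kept within subtypes. In Krt15-high basal cells 5 of the 35 members were at least 1.5-fold higher in JQ1, a share near the 15.1% of all genes. They were Bub1, Anln, Top2a, Ect2 and Plk1. No member was at least 1.5-fold lower (4.1% of all genes). Top2a had 189 CPM in JQ1 and 120 CPM in control in these cells (1.58, 1.46 to 1.70). In other basal cells 1 member, Top2a, was higher (19.1% of all genes), with 190 CPM in JQ1 and 114 CPM in control (1.68), and 1, Ube2c, was lower (5.44% of all genes), with 144 CPM in JQ1 and 216 CPM in control (0.666).

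In suprabasal cells 13 members were higher (21.6% of all genes) and 1 was lower (5.5% of all genes). The counting interval left out 1 for 11 of the 13 and for 0 of the 1. Top2a had 57.9 CPM in JQ1 and 24.96 CPM in control there (2.32, 1.92 to 2.79), and Kif4 9.39 CPM in JQ1 and 2.96 CPM in control (3.18, 1.89 to 5.33) from 31 and 34 UMIs. In the stress subtype 2 members were higher (19.2% of all genes) and 11 lower (9.74% of all genes). The counting interval left out 1 for 0 of the 2 and for 6 of the 11. In this subtype Ube2c had 46.2 CPM in JQ1 and 86.6 CPM in control (0.533) and Cdk1 16.8 CPM in JQ1 and 30.8 CPM in control (0.545). Over these 4 subtypes, Ect2, Nuf2 and Ttk were above a ratio of 1 in each, 18 members in 3 of the 4, and Ect2 had the narrowest range, 1.44 to 1.55. The median of all genes also lay above 1 in each of these subtypes, and the share of all genes above 1 is not given here.

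**Figure D5:**
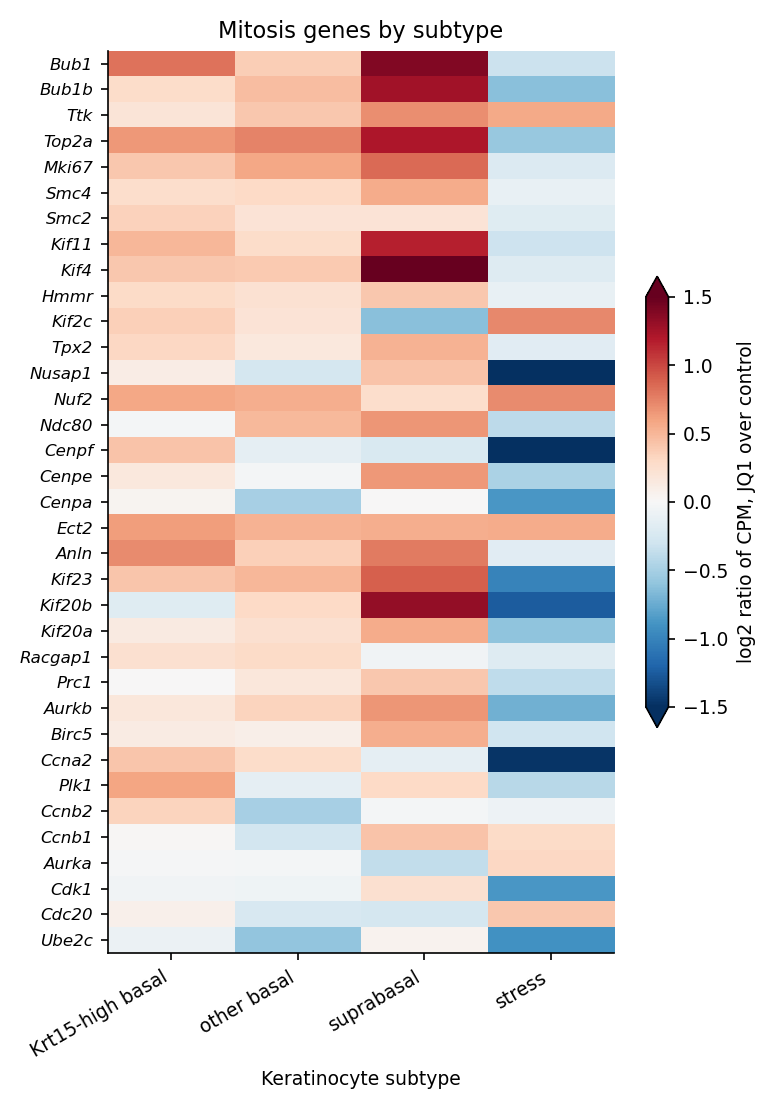
log2 ratio of CPM, JQ1 over control, for each mitosis gene (rows, in the order of the plot of the 35 ratios) in 4 keratinocyte subtypes (columns); colours stop at 1.5 on either side. Ect2, Nuf2 and Ttk are red in all 4 columns, and the stress column, in which several genes rest on fewer than 10 JQ1 UMIs, is mostly blue.

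In keratinocytes as a whole, genes of DNA replication, which act in the preceding S phase, differed more between the libraries than the mitosis genes. They summed to 909 CPM in JQ1 and 503 CPM in control, and 22 of 25 were at least 1.5-fold higher, against 22.8% of all genes. The replication ratio lay closer to 1 than the mitosis ratio in T cells (1.12, 0.988 to 1.28), endothelial cells (1.21, 1.12 to 1.31) and stress keratinocytes (1.06, 0.948 to 1.18). Pcna, the sliding clamp, had 79.2 CPM in JQ1 and 51.5 CPM in control (1.54), and Cdc6, which loads the replicative helicase, 6.18 CPM in JQ1 and 2.66 CPM in control (2.32). For each replication UMI, keratinocytes held 1.68 mitosis UMIs in JQ1 (1.65 to 1.72) and 2.34 in control (2.32 to 2.37). This number was lower in JQ1 in Krt15-high basal cells (1.89 in JQ1 and 2.62 in control) and other basal cells (1.51 and 2.53). It was also lower in suprabasal cells (1.81 and 2.45) and stress cells (1.78 and 2.45). The lower number was not particular to keratinocytes. Fibroblasts had 0.373 in JQ1 and 0.486 in control, endothelial cells 0.646 and 1.02, and T cells 0.882 and 1.64. It was not lower in mature neutrophils (0.533 and 0.523) or in the unlike immature neutrophils (1.07 and 0.526). Of the thinned keratinocytes counted for mitosis, 41.4% in JQ1 (35.9 to 47.0) and 23.7% in control (21.0 to 26.5) also had at least 2 replication UMIs. Keratinocytes that reached 2 replication UMIs without being counted for mitosis were also a larger part of all thinned cells in JQ1. They were 129 of all 1292 thinned JQ1 keratinocytes and 300 of all 5145 control ones. These totals include the counted cells, so the parts are not on the same base as the shares above. Whether the overlap exceeds what the higher replication level gives was not tested.

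Of 34 further mitosis genes, 20 were at least 1.5-fold higher in JQ1 keratinocytes (22.8% of all genes) and 0 lower (8.18% of all genes). Kif15, a spindle kinesin, had 19.2 CPM in JQ1 and 8.58 CPM in control (2.24), while Cks2, a Cdk-binding protein, had 214 CPM in JQ1 and 242 CPM in control (0.886). Of 16 regulators of mitosis genes, 7 were higher (22.8% of all genes) and 0 lower (8.18%): Foxm1, a transcription factor of late cell cycle genes, had 13.8 CPM in JQ1 and 6.89 CPM in control (2.001), and the Cdk inhibitor Cdkn1a 329 CPM in JQ1 and 375 CPM in control (0.876). Of 14 genes of the anaphase-promoting complex and its inhibitors, 3 were higher, a share near the 22.8% of all genes, and 0 lower (8.18% of all genes). Among the 3 was Fbxo5, which encodes the inhibitor Emi1, with 10.8 CPM in JQ1 and 5.56 CPM in control (1.93).

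Over all endothelial cells the summed mitosis level was lower in JQ1, with a ratio of 0.769 (0.710 to 0.833). Of the 33 members over the minimum, 0 were at least 1.5-fold higher (15.8% of all genes) and 14 lower (4.72% of all genes). The counting interval left out 1 for 8 of the 14. Cenpf had 8.61 CPM in JQ1 and 21.3 CPM in control (0.405, 0.281 to 0.590), Mki67 12.1 CPM in JQ1 and 19.9 CPM in control (0.609), and Smc4 52.6 CPM in JQ1 and 55.2 CPM in control (0.953). Few cells carried these sums: 17 of 2151 JQ1 cells and 4 of 502 control cells held at least 50% of the mitosis UMIs. Without the cell with the most mitosis UMIs in each library the ratio was 0.916. Capillary cells had 297 CPM in JQ1 and 723 CPM in control, of which 1 control cell held 43.9%, and venular cells had 337 CPM in JQ1 and 256 CPM in control. The venular ratio was 1.32 for the sum, 1.68 without the top cells and 0.781 for the mean over cells, so its direction depended on how cells were weighted. The ratio was 0.967 (0.718 to 1.33) in lymphatic cells and 1.19 (0.823 to 1.76) in the remaining endothelial cells, with intervals that spanned 1. The lower level was thus not shared by all endothelial subtypes.

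T cells had a ratio of 0.603 (0.539 to 0.676), and 0.660 without the top cell of each library. Of the 17 members over the minimum, 0 were at least 1.5-fold higher (17% of all genes) and 11 lower (8.59% of all genes). The counting interval left out 1 for 6 of the 11. Ube2c had 25.7 CPM in JQ1 and 82.5 CPM in control (0.311, 0.188 to 0.507), Birc5 19.5 CPM in JQ1 and 53.2 CPM in control (0.366), and Smc4 143 CPM in JQ1 and 139 CPM in control (1.02). At least 50% of the mitosis UMIs lay in 25 of 396 JQ1 T cells and in 3 of 227 control T cells. Regulatory T cells had 978 CPM in 61 JQ1 cells and 3872 CPM in 26 control cells, with 2 cells holding at least 50% in each. In the Il17 or gamma-delta group, with 386 CPM in JQ1 and 934 CPM in control, 1 control cell held 63.5%, and the ratio without the top cells was 0.994. The other T cell groups lay above 1: CD8 T cells had 698 CPM in 34 JQ1 cells and 336 CPM in 21 control cells (2.07, 1.27 to 3.56), of which 1 JQ1 cell held 51.1%, and the ratio was 1.25 without the top cells. The remaining T cells had 616 CPM in 202 JQ1 cells and 402 CPM in 118 control cells (1.53, 1.21 to 1.96), and 1.29 without the top cells.

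Fibroblasts had a ratio of 1.02 (0.914 to 1.14). Of 28 members over the minimum, 5 were at least 1.5-fold higher (13.5% of all genes) and 4 lower (5.78% of all genes), and the intervals of those named, Ccna2, Prc1 and Anln, spanned 1. Myofibroblasts had the highest level of the fibroblast subtypes in both libraries, with 228 CPM in JQ1 and 150 CPM in control, and 4 of 531 JQ1 cells and 3 of 133 control cells held at least 50% of it. In mature neutrophils 2 members passed the minimum, Smc4 and Kif23, and the ratio of the sum was 0.812 (0.624 to 1.06).

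Erythroid cells were gated in the JQ1 library only, where Mki67 had 210 CPM, Ube2c 185 CPM and Birc5 73.7 CPM. Their mitotic exit genes held 19.3% of the mitosis UMIs, and 7 of the 233 cells held at least 50% of all of them. Among JQ1 immature neutrophils, Smc4 had 157 CPM, Mki67 118 CPM and Top2a 112 CPM. The 17 cells with early granule genes (Elane, Mpo, Prtn3, Ctsg, Ms4a3) had 1983 CPM, and the 149 other cells 886 CPM, of which 3 cells held at least 50%.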

How the data were processed

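The deposited matrices hold raw UMI counts per gene and barcode, per the labels from 10x 3′ v3.1 libraries of tongue tissue; per the submitters' processing notes, build mm10 was used with the tools Cell Ranger (3.1.0) and Seurat (4.0.0), and no further step is recorded there. From the deposited counts, barcodes were kept if they had 200 genes or more and less than 20% of UMIs from mitochondrial genes, and Scrublet in scanpy 1.11.5 removed 424 JQ1 doublet calls (2.93%) and 119 control doublet calls (1.44%). Depth was 99565417 UMIs over 16233 JQ1 barcodes and 118382532 UMIs over 9754 control barcodes.

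A cell took the class whose markers reached the class's gate, in UMIs per 10000, with at least 3 marker UMIs. A 2-fold lead, in multiples of each gate, was asked for over classes outside its family. Gland and gland duct, pericytes and smooth muscle, macrophages and dendritic cells, and mature and immature neutrophils each shared a family. Neutrophils over the immature gate were called immature whatever their mature markers. Keratinocyte subtypes had gates for Stmn2, Krt42, stress, suprabasal, cornifying and Krt15-high basal cells, the last at 2 UMIs per 10000. Keratinocytes that reached none of these gates were called other basal. The members, marker lists and gene lists were chosen with earlier results of these data known, and the gate levels after the counts were seen. In keratinocytes, 12.2% of JQ1 cells and 4.63% of control cells lay within 1.5 times the gate. Chil3 and Ppbp, which caught unlike cells in 2 gates, stayed in the marker lists, and leaving them out, with the Stmn2 gate lowered to 2, is an added alternative (trimmed markers).

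Within each library the UMIs of a class were added up, and CPM was taken relative to the class's total over every gene. Sums have exact Poisson intervals, ratios exact conditional intervals and shares Clopper-Pearson intervals, all at 95% and for counting error only, with no test because each group is 1 library. Genes with at least 20 UMIs over both libraries entered counts at 1.5-fold; a count of 0 was set to a floor of 3. The ratio and interval steps were tested on simulated data. Named were all 35 members in keratinocytes; in other classes the 3 with the most UMIs and those at 1.5-fold with at least 50 UMIs, of which the text gives some; and of each other list the 2 with the most UMIs and the highest and lowest ratio. Members named within subtypes, Ttk and Kif4 among them, were chosen after their values were seen. Alternatives were other cell filters, kept doublets, Leiden clusters (leidenalg 0.10.2) made without cell cycle genes, a 4-fold lead, median-ratio size factors, means over cells, other minimums and folds, other thinning and the control subtype mix. Scripts ran in Python 3.11.15 with scipy 1.17.1, numpy 2.4.6, matplotlib 3.10.9 and pandas 2.3.3.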

Additional observations from a re-analysis of the deposited data

Results flagged for a closer look

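The ratio of the summed mitosis level, JQ1 over control, lay above 1 in keratinocytes (1.30) and below 1 in endothelial cells (0.769) and T cells (0.603), with counting intervals that left out 1 in each. The difference between the classes was not tested, since each group is 1 library. Without the top cell of each library the ratios were 1.29 in keratinocytes, 0.916 in endothelial cells and 0.660 in T cells, while at the control mix of subtypes the keratinocyte ratio was 0.964 over all subtypes and 1.03 without the Stmn2 gate, whose JQ1 and control cells are unlike.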

How the results depend on the processing

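No paired analysis was possible because each group is 1 library and no result comes from a test. With size factors set to the median gene, the keratinocyte level in JQ1 was 1334 CPM and its ratio 1.13; the subtype ratios were 1.06 in Krt15-high basal, 0.929 in other basal (reversed), 1.14 in suprabasal and 0.686 in stress cells; 6 members were higher, with a median log2 ratio of 0.30, and 29 lay above a ratio of 1, against 33 as reported; Ccnb1 (-0.043) and Nusap1 (-0.015) reversed, and Cdk1 (-0.13) and Aurka (-0.077), whose intervals spanned a ratio of 1 as reported, also lay below 0; and the list medians were 0.42 for further mitosis genes, 0.69 for DNA replication, 0.28 for regulators and -0.040 for the anaphase-promoting complex (reversed). The shares of all genes at these adjusted cuts are not given here, so the counts of members are values only. Erythroid cells, with no control cells, have no size factor. At the control mix of subtypes the keratinocyte ratio was 0.964 (reversed), and, chosen after seeing the data, 1.03 without the Stmn2 gate, 1.08 without the Stmn2 and Krt42 gates and 1.06 with trimmed markers. Other causes were not tested.

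Leiden clusters gave 1555 CPM in JQ1 and 1190 CPM in control keratinocytes and ratios of 0.925 in endothelial and 0.762 in T cells. Means over cells gave 1311 CPM in JQ1 and 1026 CPM in control keratinocytes and ratios of 1.28 in keratinocytes, 0.777 in T cells, 1.09 in other basal and 1.15 in suprabasal cells. The stricter gate gave 1164 CPM in control keratinocytes and ratios of 1.33 in keratinocytes, 1.14 in fibroblasts and 1.10 in other basal cells. The Krt15-high basal ratio was 1.21 with the stricter cell filter, under which keratinocytes ranked 2 in JQ1, and 1.15 with doublet calls kept. Without the 5 members chosen as widely used the ratios were 1.33 in keratinocytes, 0.668 in endothelial and 0.510 in T cells. At 2-fold, 0 members were higher, and the share of all genes at that cut is not given here. Chosen after seeing the data, leaving out the top cell gave 0.916 in endothelial, 1.24 in suprabasal and 0.612 in stress cells, and the trimmed markers gave 1.21 in suprabasal cells, 1220 CPM in 153 JQ1 immature neutrophils and 61.6 CPM in 4 control ones, and 1206 CPM in 6 JQ1 cells and 795 CPM in 724 control cells of the Stmn2 gate.

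The share of keratinocytes was 33.4% in JQ1 and 25.6% in control at 2000 UMIs, 38.4% and 31.9% at 1 mitosis UMI, 17.0% and 13.2% at 3, and 61.1% and 67.8% without thinning, the one setting with a lower JQ1 share. Depth limits members with few UMIs in T cells and neutrophils, of which 17 and 2 passed the minimum.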
